A study of Homo sapiens with 8 samples.

Results

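The Polo-like kinases PLK1, PLK2, PLK3 and PLK4 are serine/threonine kinases of 1 gene family, and they were followed here across sorted and drug-treated HT29 cells. The members were chosen by gene symbol, and all 4 were found among the 38148 genes of the expression table. All 4 reached 1 RPM, a library-size-scaled read count, in their mean and so were among the 14219 genes tested. HT29 cells are a line from a human colorectal cancer with a BRAF mutation that keeps the ERK pathway on, and selumetinib is an inhibitor of MEK, the kinase that activates ERK. The 4 groups were untreated CCNB1-negative cells, untreated CCNB1-positive cells, and the same 2 fractions after 24 h in 1 μM selumetinib, with 2 libraries in each. All the cells, untreated ones included, were fixed with glyoxal, permeabilised, stained for cyclin B1 (CCNB1, the cyclin that accumulates in G2) and separated by flow cytometry before poly(A) RNA was sequenced. The study used these cells to check whether the behaviour of gene sets found in another colorectal cancer line, COLO205, was particular to that line.

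The sample labels disagree with each other. Every library has a short description that is also its column name in the expression table, and a title that gives the other treatment and the other fraction. On the drug, the medium given in the labels follows the titles. Groups follow the descriptions here. Under the titles, the response given below for CCNB1-negative cells would be that of CCNB1-positive cells with its sign turned, and the reverse, and the same exchange would apply to the 2 fraction differences. CCNB1 mRNA was higher in both libraries described as CCNB1-positive than in both described as CCNB1-negative, under either treatment, so by the titles it would be lower in the stained cells. ETV4 and MYC, transcribed in response to ERK activity, were lower in the libraries described as treated in both fractions. On the log2 scale they were lower by 3.10 and 2.27 in CCNB1-negative and by 2.34 and 1.85 in CCNB1-positive ones. By the titles both would be higher with the MEK inhibitor. By the test below, 14 of 15 ERK-responsive genes fell and 1 rose in CCNB1-negative libraries, and 13 fell and 1 rose in CCNB1-positive ones. Of 11 serum-induced immediate early genes tested, 9 and 11 rose in these responses, so by the titles these would be lower with the drug. The labels name RPMI-1640 as the medium, whereas the study's methods name another medium for HT29. Nothing states that the 2 libraries of a group came from separate cultures, so the p-values measure only the spread between these libraries, which may be technical.

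PLK1 drives mitotic entry, centrosome maturation, chromosome attachment and cytokinesis, and its mRNA and protein peak in G2 and mitosis before the protein is degraded. PLK4 is the kinase that starts centriole duplication, and its dose is tightly limited because excess PLK4 gives extra centrioles. PLK2 and PLK3, once known as SNK and FNK, were found as genes induced by serum and growth factors, and both are also known as responders to stress and DNA damage, PLK2 as a p53 target. All members bind their partners through polo-box domains, and a further family gene, PLK5, has lost most of its kinase domain.

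The members lie at 4 unlinked loci. PLK1 (ENSG00000166851) is at chr16:23677656-23690367 on the plus strand of GRCh38, PLK2 (ENSG00000145632) at chr5:58453982-58460139 on the minus strand, PLK3 (ENSG00000173846) at chr1:44800377-44805990 on the plus strand, and PLK4 (ENSG00000142731) at chr4:127880893-127899224 on the plus strand. The 4 promoters are shown as a description, and their part in the responses was not tested. Each sequence is the RefSeq window on GRCh38.p14 from 250 bases before to 50 bases after a transcription start, read 5′ to 3′ on the gene's own strand, and capitals mark matches to the motifs searched. They cover chr16:23678639-23678938 for PLK1, chr5:58460037-58460336 for PLK2, chr1:44800127-44800426 for PLK3 and chr4:127880643-127880942 for the first of 3 PLK4 windows.
PLK1: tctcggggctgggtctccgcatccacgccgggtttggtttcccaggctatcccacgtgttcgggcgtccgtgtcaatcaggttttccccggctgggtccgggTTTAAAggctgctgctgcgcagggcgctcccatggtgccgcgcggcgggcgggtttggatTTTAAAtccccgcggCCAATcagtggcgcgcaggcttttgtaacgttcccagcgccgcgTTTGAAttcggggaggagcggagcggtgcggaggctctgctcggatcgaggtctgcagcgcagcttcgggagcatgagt
PLK2: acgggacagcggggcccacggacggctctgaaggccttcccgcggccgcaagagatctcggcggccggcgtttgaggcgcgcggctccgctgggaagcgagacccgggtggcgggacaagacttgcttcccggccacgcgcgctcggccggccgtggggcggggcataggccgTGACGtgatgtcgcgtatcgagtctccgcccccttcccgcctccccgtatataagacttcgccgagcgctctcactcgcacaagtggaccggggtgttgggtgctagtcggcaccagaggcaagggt
PLK3: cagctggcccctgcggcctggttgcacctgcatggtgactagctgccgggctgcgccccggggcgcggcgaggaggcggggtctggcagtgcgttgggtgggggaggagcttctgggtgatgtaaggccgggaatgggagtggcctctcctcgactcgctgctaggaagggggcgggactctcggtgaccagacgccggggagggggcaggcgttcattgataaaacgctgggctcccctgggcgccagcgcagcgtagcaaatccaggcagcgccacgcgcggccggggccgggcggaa
PLK4: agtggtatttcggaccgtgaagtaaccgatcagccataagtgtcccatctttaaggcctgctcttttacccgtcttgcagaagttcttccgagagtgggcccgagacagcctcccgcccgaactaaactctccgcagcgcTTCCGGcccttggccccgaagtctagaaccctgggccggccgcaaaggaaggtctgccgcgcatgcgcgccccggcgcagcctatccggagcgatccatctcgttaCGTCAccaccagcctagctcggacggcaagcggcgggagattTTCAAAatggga

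The motifs, searched on both strands, were the cell cycle homology region (CHR) as TTTGAA or TTTAAA, the CCAAT box, the E2F sites TTTGGCGC, TTTCCCGC and TTTCGCGC, the cAMP response element TGACGTCA and its core TGACG, the ETS site CCGGAA, and the serum response element by name. The PLK1 window held TTTGAA starting 29 bases before the start site, a CCAAT box starting 73 bases before it, and TTTAAA starting 88 and 148 bases before it. TTTGAA occurred in 15.2% of all 35116 promoter windows of this length, TTTAAA in 12.2% and CCAAT in 34.6%. The first PLK4 window held TTTGAA on the other strand 38 bases after the start site, TGACG on the other strand and an ETS core CCGGAA on the other strand. TGACG occurred in 24.6% of all windows and CCGGAA in 17.2%. The third PLK4 window held a CCAAT box on the other strand and the second held no match. The PLK2 window held TGACG, 77 bases before the start site, and the PLK3 window held none of the motifs. A match says only that these letters are present.

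The libraries held between 12696860 and 23916160 reads on genes, with the fewest in the selumetinib-treated CCNB1-negative group. All 7 colon epithelial markers had reads in every library, from CDX2 at 2.09 to 6.81 RPM to KRT8 at 1965 to 5592, and their summed level was 9930 to 11016 RPM in untreated and 4578 to 8247 in treated libraries. The summed level of 7 markers of blood, stromal and endothelial cells was 1.36 to 2.13 RPM in untreated and 2.76 to 6.31 in treated libraries. Among these markers COL1A1 ranged most, from 0.314 to 5.36 RPM over the libraries, and PECAM1 was next with at most 1.13. Mitochondrial transcripts took 4.44 to 7.80% of reads in untreated and 11.9 to 14.8% in treated libraries, and the nuclear RNA MALAT1 took 0.303 to 0.386% and 2.01 to 4.42%. The part of these shares in the responses below was not tested beyond 1 other scaling, which leaves both out of the totals. The log2 level of CCNB1, the sorting marker, was 11.83 ± 0.25 and 13.92 ± 0.19 (SD, n = 2) in untreated CCNB1-negative and CCNB1-positive cells, and 7.57 ± 0.49 and 12.65 ± 0.16 (SD, n = 2) in the treated fractions.

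PLK1, the mitotic kinase, varied more than any other member. Values are log2 of reads scaled to the deepest library, so a difference of 1 is a 2-fold difference. Without the drug PLK1 stood at 10.93 and 10.52 in CCNB1-negative libraries and at 13.29 and 13.48 in CCNB1-positive ones. In selumetinib it stood at 7.71 and 7.10 in CCNB1-negative and at 12.17 and 11.90 in CCNB1-positive libraries. The 4 groups were thus ordered untreated CCNB1-positive, treated CCNB1-positive, untreated CCNB1-negative and treated CCNB1-negative, and no neighbours in that order overlapped. The reads behind the lowest group were 133 and 81, and those behind the highest 10044 and 10423.

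PLK1 was lower with selumetinib in both fractions. In CCNB1-negative cells it fell by 3.32 on the log2 scale (SE 0.20, 95% interval -3.75 to -2.88, adjusted p = 1.08e-08), a 9.97-fold lower level. In CCNB1-positive cells it fell by 1.36 (SE 0.20, 95% interval -1.79 to -0.92, adjusted p = 5.85e-05), a 2.56-fold lower level. These and the later p-values are from limma, with Benjamini-Hochberg adjustment over all genes tested and a call at an adjusted p under 0.05. Between fractions PLK1 was 6.34-fold higher in CCNB1-positive than in CCNB1-negative cells without the drug (log2 difference 2.67, 95% interval 2.23 to 3.10, adjusted p = 5.34e-06). With the drug it was 24.7-fold higher (4.63, 95% interval 4.19 to 5.06, adjusted p = 8.64e-10). The fall was smaller in CCNB1-positive than in CCNB1-negative cells by 1.96 (interaction, SE 0.29, 95% interval 1.35 to 2.58, adjusted p = 5.15e-04). In sorted bulk samples, fewer cells of a type and less RNA per cell cannot be told apart.

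PLK1 shares exon bases with genes on the opposite strand. The noncoding gene ENSG00000261266 overlaps 553 of its exon bases and held 0 to 24 reads, and ERN2 overlaps 58 bases at its end and held 221 to 376 reads in untreated and 597 to 893 in treated libraries. The library kit kept strand, but how strand entered the counting is not given in the sources used here, so the part of these reads in the 81 and 133 reads of PLK1 was not tested.

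PLK4, the centriole kinase, was low in 1 group only. Its values were 10.41 and 10.20 in untreated CCNB1-negative, 10.63 and 10.60 in untreated CCNB1-positive, 6.97 and 6.99 in treated CCNB1-negative and 9.93 and 10.26 in treated CCNB1-positive libraries. The treated CCNB1-negative libraries, with 80 and 75 reads, lay far under all others, and the untreated CCNB1-negative and treated CCNB1-positive libraries overlapped. PLK4 fell by 3.32 in CCNB1-negative cells (SE 0.16, 95% interval -3.67 to -2.97, adjusted p = 2.16e-09), a 9.98-fold lower level.

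In CCNB1-positive cells PLK4 fell by 0.52 (SE 0.16, 95% interval -0.87 to -0.17, adjusted p = 0.0123). That call was lost, at a log2 difference of -0.37 and an adjusted p of 0.0645, when libraries were scaled to nuclear reads without MALAT1. It was also lost without untreated CCNB1-positive replicate 1 (log2 difference -0.50, adjusted p = 0.0609), without untreated CCNB1-positive replicate 2 (-0.53, adjusted p = 0.0545) and without treated CCNB1-positive replicate 1 (-0.35, adjusted p = 0.153). The interaction for PLK4 was 2.80 (SE 0.23, 95% interval 2.31 to 3.29, adjusted p = 4.81e-06).

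PLK4 passed the test between fractions in treated cells and not in untreated ones, and the interaction above is the test of that difference. In selumetinib it was 8.67-fold higher in CCNB1-positive cells (log2 difference 3.12, 95% interval 2.77 to 3.46, adjusted p = 4.85e-09). Without the drug the difference was 0.31 with an interval of -0.03 to 0.66 (adjusted p = 0.447). The intervals of PLK1 and PLK4 for the difference between fractions lie apart under both treatments, with PLK1 above.

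**Figure D1:**
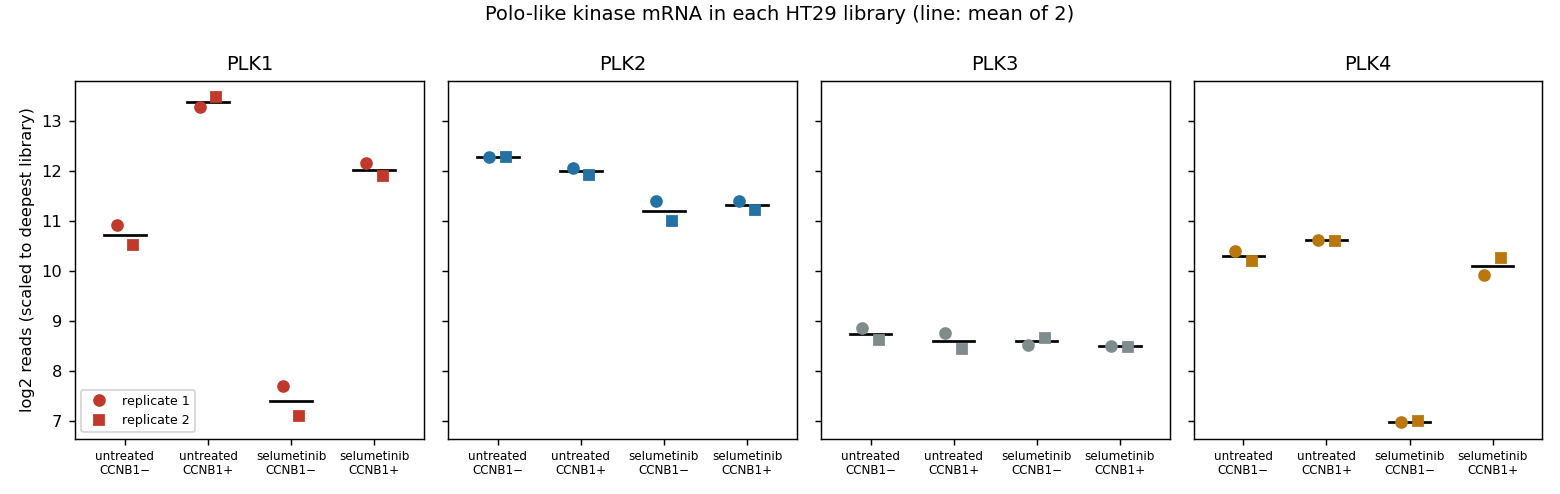
Log2 of reads scaled to the deepest library (vertical axis) for PLK1, PLK2, PLK3 and PLK4 in the 4 groups (horizontal axis), with 1 point for each library and a line at the mean of the 2. PLK1 and PLK4 dropped to means of 7.40 and 6.98 in treated CCNB1-negative cells, PLK2 moved over a range of 11.01 to 12.29 and PLK3 over 8.44 to 8.85.

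PLK2, the serum-inducible and p53-responsive member, was lower with selumetinib whether or not the cells stained for CCNB1. Its values were 12.29 and 12.29 in untreated CCNB1-negative libraries, 12.06 and 11.93 in untreated CCNB1-positive ones, 11.41 and 11.01 in treated CCNB1-negative ones and 11.41 and 11.22 in treated CCNB1-positive ones. All 4 untreated libraries lay above all 4 treated ones, and the 2 treated groups overlapped. PLK2 fell by 1.08 in CCNB1-negative cells (SE 0.16, 95% interval -1.42 to -0.74, adjusted p = 3.02e-05), a 2.12-fold lower level. It fell by 0.68 in CCNB1-positive cells (SE 0.16, 95% interval -1.02 to -0.34, adjusted p = 0.00203), a 1.60-fold lower level.

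The fractions were not separated for PLK2 by the main fit, which has no block for replicate numbers. CCNB1-positive minus CCNB1-negative was -0.30 without the drug (95% interval -0.64 to 0.05, adjusted p = 0.471) and 0.11 with it (95% interval -0.23 to 0.45, adjusted p = 0.651). The interaction was 0.40 (95% interval -0.08 to 0.89, adjusted p = 0.334). With a block for the 2 fractions that share a treatment and a number, the untreated difference and the interaction of PLK2 passed the threshold, with adjusted p-values of 0.0455 and 0.0325.

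PLK3, the other growth factor and stress responder, was not called in any comparison. Its values were 8.85 and 8.63, 8.75 and 8.44, 8.51 and 8.67, and 8.49 and 8.49 in the groups in the same order, from 228 to 431 reads. The untreated CCNB1-positive libraries overlapped both the untreated and the treated CCNB1-negative ones, and each group's mean lay between 8.49 and 8.74. Selumetinib minus untreated was -0.15 in CCNB1-negative cells (95% interval -0.54 to 0.24, adjusted p = 0.465) and -0.11 in CCNB1-positive cells (95% interval -0.49 to 0.28, adjusted p = 0.612). The intervals thus leave room for a fall to -0.54 or a rise to 0.28. The sign of both differences depended on the scaling: they were 0.03 and 0.04 with totals of nuclear reads without MALAT1, and after quantile normalization the CCNB1-positive difference was -0.43 and passed the threshold (adjusted p = 0.0454). Between fractions PLK3 differed by -0.14 without the drug (95% interval -0.53 to 0.24) and by -0.10 with it (95% interval -0.49 to 0.29). DYNLT4, which overlaps 98 exon bases of PLK3 on the opposite strand, held 4 to 27 reads. PLK5 had 0 to 5 reads in each library and could not be tested.

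**Figure D2:**
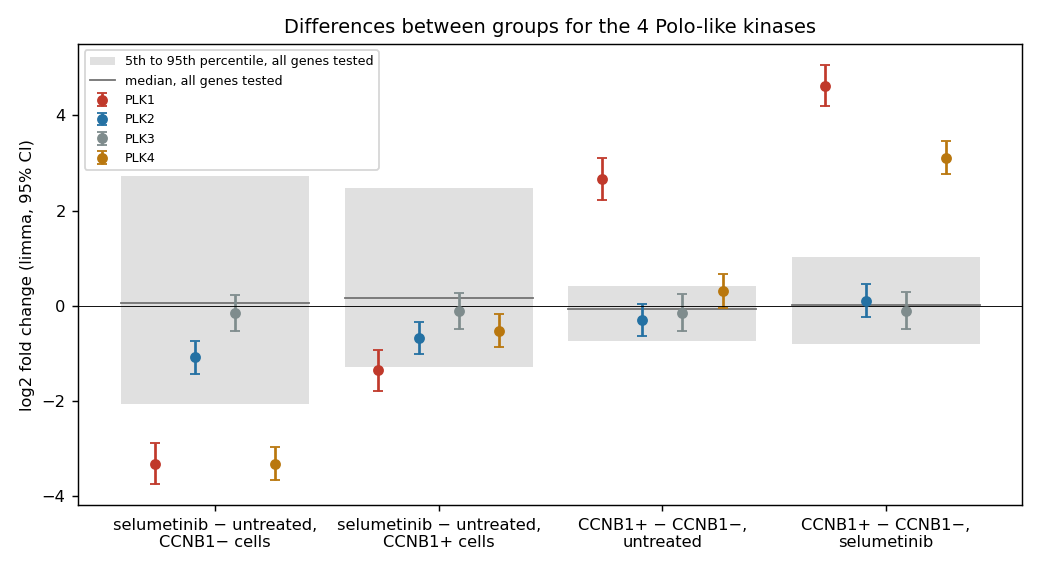
Log2 differences with limma 95% intervals for the 4 members in the 2 responses and the 2 fraction differences. The median and the 5th to 95th percentile of all genes tested are in grey. PLK1 and PLK4 lie together at -3.32 in the CCNB1-negative response and apart, at 2.67 and 0.31, in the untreated fraction difference.

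Selumetinib changed most genes in these cells, so the members' calls are read against that background. In CCNB1-negative cells 3 of the 4 members were called lower, and 35.8% of all genes tested were. In CCNB1-positive cells the same 3 members were called lower, and 27.3% of all genes were, while 26.0% of genes were called lower in both fractions. The libraries of the 2 groups did not overlap for 3 of 4 members in each response, against 86.4% of all genes in the CCNB1-negative response and 85.8% in the CCNB1-positive one. A call is thus common in these cells, and the sizes are set against the median of all genes instead. The median of all genes was 0.05 in the CCNB1-negative response and 0.17 in the other. Relative to those medians PLK1 and PLK4 were both at -3.37 in CCNB1-negative cells, PLK2 at -1.13 and PLK3 at -0.20, and in CCNB1-positive cells PLK1 was at -1.52, PLK2 at -0.84, PLK4 at -0.69 and PLK3 at -0.27. After quantile normalization the CCNB1-positive values were -0.86 for PLK1, -0.37 for PLK2, -0.39 for PLK4 and -0.36 for PLK3, so that the last 3 lay close together, while those in CCNB1-negative cells were -3.57, -0.74, -3.70 and -0.18.

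Fraction differences were rarer. Without the drug 1 of 4 members, PLK1, was called higher in CCNB1-positive cells, against 1.36% of all genes, and with it PLK1 and PLK4 were, against 13.8%. The libraries of the 2 fractions did not overlap for PLK1, PLK2 and PLK4 without the drug, against 44.3% of all genes, and for PLK1, PLK3 and PLK4 with it, against 63.9%. The interaction was called, in the direction of a smaller fall in CCNB1-positive cells, for PLK1 and PLK4, against 4.99% of all genes called in that direction.

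Ratios of members within a library do not depend on how libraries were scaled. The log2 ratio of PLK1 to PLK4 reads was 0.52 and 0.32 in untreated CCNB1-negative and 0.73 and 0.11 in treated CCNB1-negative libraries, with a mean of 0.42 in both groups, since the falls of both genes were of one size there. In CCNB1-positive libraries the same ratio was 2.66 and 2.88 without the drug and 2.24 and 1.63 with it. PLK1 thus stood higher against PLK4 in CCNB1-positive cells under both treatments, and the 2 treated libraries lay under the 2 untreated ones.

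Other ratios set a cell cycle member against a growth factor or stress member. The mean log2 ratio of PLK1 to PLK3 reads had the widest span, from -1.19 ± 0.54 in treated CCNB1-negative to 4.79 ± 0.35 (SD, n = 2) in untreated CCNB1-positive cells. That of PLK3 to PLK4 reads went from -1.56 ± 0.01 to 1.61 ± 0.10 with the drug in CCNB1-negative cells, and from -2.02 ± 0.20 to -1.61 ± 0.24 (SD, n = 2) in CCNB1-positive cells. The log2 ratio of PLK2 to PLK4 reads was 1.88 and 2.09 in untreated CCNB1-negative libraries and 4.43 and 4.02 in treated ones. In CCNB1-positive libraries it was 1.43 and 1.33 without the drug and 1.48 and 0.96 with it, and these overlapped. The log2 ratio of PLK1 to PLK2 reads was -1.36 and -1.77 in untreated CCNB1-negative, 1.24 and 1.55 in untreated CCNB1-positive, -3.70 and -3.91 in treated CCNB1-negative and 0.75 and 0.68 in treated CCNB1-positive libraries. It fell with the drug in both fractions, by 2.24 in the CCNB1-negative mean and by 0.68 in the CCNB1-positive one, so PLK1 lost more than PLK2 in each. Between the 2 growth factor members, the mean log2 ratio of PLK2 to PLK3 reads went from 3.55 ± 0.16 to 2.62 ± 0.39 in CCNB1-negative and from 3.40 ± 0.13 to 2.83 ± 0.13 (SD, n = 2) in CCNB1-positive cells, and treated and untreated libraries did not overlap in either fraction. No test was made on these ratios.

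**Figure D3:**
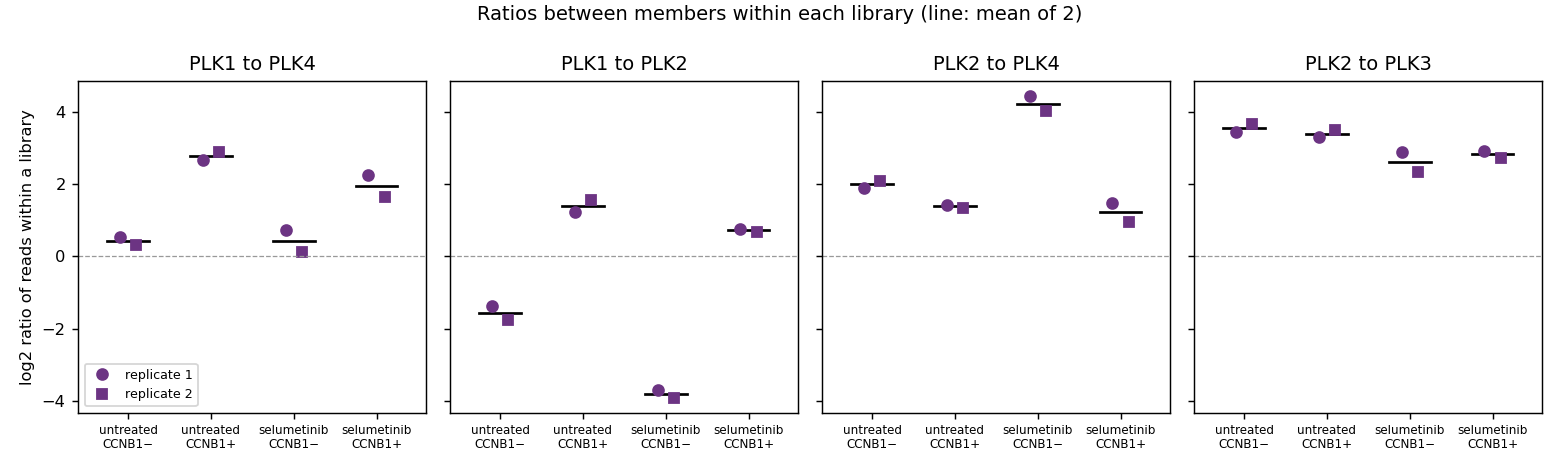
Log2 of the read ratio of pairs of members within each library (vertical axis) by group (horizontal axis), with 1 point for each library and a line at the mean of the 2. PLK1 to PLK4 stayed at a mean of 0.42 in CCNB1-negative cells, and PLK2 to PLK4 went from 1.99 to 4.23 there.

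Levels of different genes can be compared per length, as reads per kilobase of merged exons in RPM of the reads on genes (RPKM), if reads were counted on exons, which is not stated. PLK2 had the highest level in both CCNB1-negative groups, at 45.0 ± 0.38 RPKM without and 23.6 ± 4.22 (SD, n = 2) with the drug. PLK1 had the highest level in both CCNB1-positive groups, at 93.8 ± 7.89 and 39.5 ± 4.85 RPKM, beside PLK2 at 36.6 ± 2.46 and 24.6 ± 2.09. PLK4 was at 11.8 ± 1.31 and 14.6 ± 0.31 RPKM in untreated CCNB1-negative and CCNB1-positive cells, at 1.30 ± 0.03 in treated CCNB1-negative cells and at 11.0 ± 1.89 in treated CCNB1-positive cells. PLK3 was between 4.84 and 5.39 RPKM in all 4 groups. PLK1 was at 15.0 ± 3.11 and 1.67 ± 0.46 RPKM in the CCNB1-negative groups, so in treated CCNB1-negative cells both cell cycle members lay under PLK3, while in the other 3 groups both lay above it. On the length of the longest transcript all PLK2 levels were higher, at 75.0 and 60.9 RPKM without and 39.3 and 40.9 with the drug.

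Genes that work with PLK1 moved with it in the treated CCNB1-negative cells. Of 10 genes of mitotic entry, among them AURKA and BORA, which activate PLK1, 9 fell in CCNB1-negative cells with a median of -2.97, and 5 fell and 1 rose in CCNB1-positive cells with a median of -0.43. Of all genes 35.8% fell in the first response and 27.3% in the second. After quantile normalization 4 of the 10 fell in CCNB1-positive cells with a median of -0.17. CDK1, the mitotic cyclin-dependent kinase, fell by 4.17 (SE 0.24, adjusted p = 7.94e-09) and by 1.03 (SE 0.24, adjusted p = 0.00210). Its partner CCNB1 fell by 4.27 and by 1.27, and is counted in the list although the cells were sorted on its protein. Of 11 docking partners and substrates of PLK1, 10 fell in CCNB1-negative cells with a median of -3.14, and 8 fell and 1 rose in CCNB1-positive cells with a median of -0.57. The checkpoint kinase BUB1, which docks PLK1 at kinetochores, fell by 4.05 (SE 0.16, adjusted p = 7.18e-10) and by 0.89 (SE 0.16, adjusted p = 3.16e-04). CENPU, its other kinetochore anchor, fell by 3.48 (SE 0.17, adjusted p = 2.12e-09) and by 0.52 (SE 0.17, adjusted p = 0.0151). The second call of CENPU was lost with nuclear totals (-0.37, adjusted p = 0.0649) and without untreated CCNB1-positive replicate 2 (-0.44, adjusted p = 0.112) or treated CCNB1-positive replicate 2 (-0.49, adjusted p = 0.0773).

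Genes of centriole duplication moved in both directions. Of 11, 5 fell and 2 rose in CCNB1-negative cells with a median of -0.30, and 6 rose and 0 fell in CCNB1-positive cells with a median of 0.58. Of all genes 35.8% fell and 38.2% rose in the first response, and 27.3% fell and 38.0% rose in the second. The counts of this short list were not tested against those shares. CENPJ, which sets centriole length, fell by 2.13 in CCNB1-negative cells (SE 0.19, adjusted p = 2.46e-07) and was at 0.12 in CCNB1-positive cells (adjusted p = 0.589). SASS6, the cartwheel protein recruited downstream of PLK4, fell by 1.82 (SE 0.18, adjusted p = 6.04e-07) and was at -0.36 (adjusted p = 0.0851), or -0.58 (adjusted p = 0.0109) after quantile normalization. BTRC, a substrate receptor of the ubiquitin ligase that degrades PLK4, rose by 1.81 (SE 0.18, adjusted p = 7.02e-07) and by 0.97 (SE 0.18, adjusted p = 3.14e-04). CEP97, which with CCP110 caps centrioles, rose by 0.70 (SE 0.20, adjusted p = 0.00649) and by 1.14 (SE 0.20, adjusted p = 2.47e-04). The first call of CEP97 was lost without replicate 2 of untreated (0.55, adjusted p = 0.0675) or of treated CCNB1-negative cells (0.54, adjusted p = 0.0596). CEP192 is counted in this list and among the PLK1 partners.

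Most of the ERK-responsive genes were lower in both fractions, as were PLK2 and 26.0% of all genes tested. Of 15, 14 fell and 1 rose in CCNB1-negative cells with a median of -1.60, and 13 fell and 1 rose in CCNB1-positive cells with a median of -1.33. Of all genes 35.8% were called lower in the first response and 27.3% in the second. The interaction was called for 0 of the 15 by limma and by limma-voom, against 4.99% of all genes called positive by limma. Of the 15, 4 had an unadjusted p under 0.05 for the interaction in limma. With the block by pair of fractions the interaction was called for 4, among them ETV5 at 0.93 (adjusted p = 0.00365). Without treated CCNB1-positive replicate 1 it was called for 3, among them ETV4 at 1.45 (adjusted p = 0.00550) and ETV5 at 1.49 (adjusted p = 0.0215), and without treated CCNB1-negative replicate 1 for 1. The ETS factors ETV4 and ETV5, direct readouts of ERK activity, fell by 3.10 (SE 0.31, adjusted p = 8.11e-07) and 2.95 (SE 0.30, adjusted p = 8.78e-07) in the CCNB1-negative response. In the CCNB1-positive one they fell by 2.34 (adjusted p = 2.24e-05) and 2.02 (adjusted p = 5.28e-05). EPHA4, an ephrin receptor, rose by 4.11 and 3.08 (adjusted p = 6.71e-07 and 1.97e-05) from 8 to 159 reads per library.

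Immediate early genes, which like PLK2 and PLK3 are induced by serum, went the other way from PLK2. Of 11 tested of 12, 9 rose in CCNB1-negative cells with a median of 1.17, and all 11 rose in CCNB1-positive cells with a median of 1.53. The nuclear receptor NR4A1 rose by 2.05 and 2.63 (adjusted p = 4.41e-06 and 1.36e-06). The zinc finger factor EGR2, with 10 to 47 reads, rose by 2.08 and 1.59 (adjusted p = 4.60e-04 and 0.00427), and after quantile normalization the CCNB1-positive value was 0.20 (adjusted p = 0.665). By that scaling 11 genes of the list rose in the CCNB1-negative response and 10 in the other. Of 15 p53 and stress-responsive genes, 5 rose and 2 fell in CCNB1-negative cells with a median of 0.34, and 9 rose and 1 fell in CCNB1-positive cells with a median of 0.67. After quantile normalization these were 5 and 3 with a median of 0.02, and 6 and 4 with a median of 0.37. BTG2, an antiproliferative gene, rose by 2.95 and 3.06 (adjusted p = 8.62e-08 and 2.79e-07), and TP53INP1 rose by 4.36 and 7.10 (adjusted p = 8.40e-08 and 2.12e-08) from 2 to 391 reads per library. The apoptosis gene BAX fell by 1.15 and 0.60 (adjusted p = 1.01e-05 and 0.00325), and the death receptor gene FAS, with 8 to 66 reads, fell by 1.61 in CCNB1-negative cells (adjusted p = 0.00132) and was at -0.40 in CCNB1-positive cells (adjusted p = 0.358). After quantile normalization FAS fell by 1.57 there (adjusted p = 0.00257). Beside these lists stand the medians of all genes, 0.05 and 0.17, and the 38.2% and 38.0% of all genes that were called higher in CCNB1-negative and CCNB1-positive cells.

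**Figure D4:**
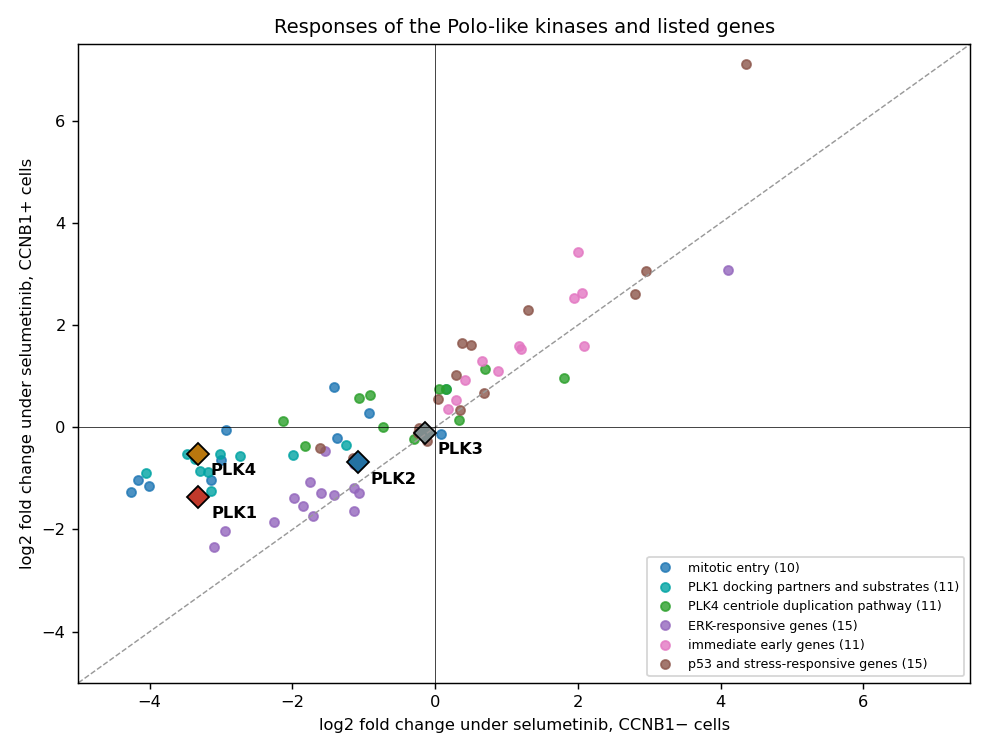
Log2 response to selumetinib in CCNB1-negative cells (horizontal axis) against that in CCNB1-positive cells (vertical axis), with 1 point for each gene of the 6 lists and the 4 members marked, and a dashed line where both are equal. PLK1 at -3.32 and -1.36 and PLK4 at -3.32 and -0.52 lie above the line, and PLK2 at -1.08 and -0.68 and PLK3 at -0.15 and -0.11 lie close to it.

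The genes most like each member were found by the root mean square (RMS) difference of their centred log2 values over the 8 libraries, which share groups and scaling. Nearest to PLK1 was KPNA2, a nuclear import factor, at an RMS difference of 0.11 (Pearson's r = 0.999 over 8 libraries). It was followed by the mitotic kinase AURKA at 0.20, the spindle genes HMMR at 0.24 and TPX2 at 0.25, and the centrosome kinase NEK2 at 0.31. Nearest to PLK4 were SKA3, of the kinetochore, at 0.15, CDCA5 (sororin, a cohesion factor) at 0.19, the histone chaperone ASF1B at 0.20, the recombination gene RAD54L at 0.21 and the kinase MELK at 0.23. Only 4 genes lay within 0.25 of PLK1 and 6 within 0.25 of PLK4.

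PLK2 and PLK3 had many neighbours, 1671 and 2076 genes within 0.25. The 5 nearest to PLK2 were SLC48A1, UBFD1, EIF2S3, SH3BGRL3 and EMC2, at 0.072 to 0.090, and the 5 nearest to PLK3 were HERC2, FAM160A2, MIA3, ZNF512 and MPV17, at 0.045 to 0.080. With quantile normalization KPNA2 and AURKA were again the nearest to PLK1 and CDCA5 and SKA3 to PLK4, whereas SLC48A1 took rank 597 for PLK2 and HERC2 rank 653 for PLK3, so the neighbours of the flatter members depended on the scaling. Across the same 8 libraries, as a description, r was 0.92 between PLK1 and PLK4, 0.47 between PLK1 and PLK2 and 0.48 between PLK2 and PLK3. With CCNB1 it was 0.99 for PLK1, 0.96 for PLK4, 0.55 for PLK2 and -0.09 for PLK3.

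**Figure D5:**
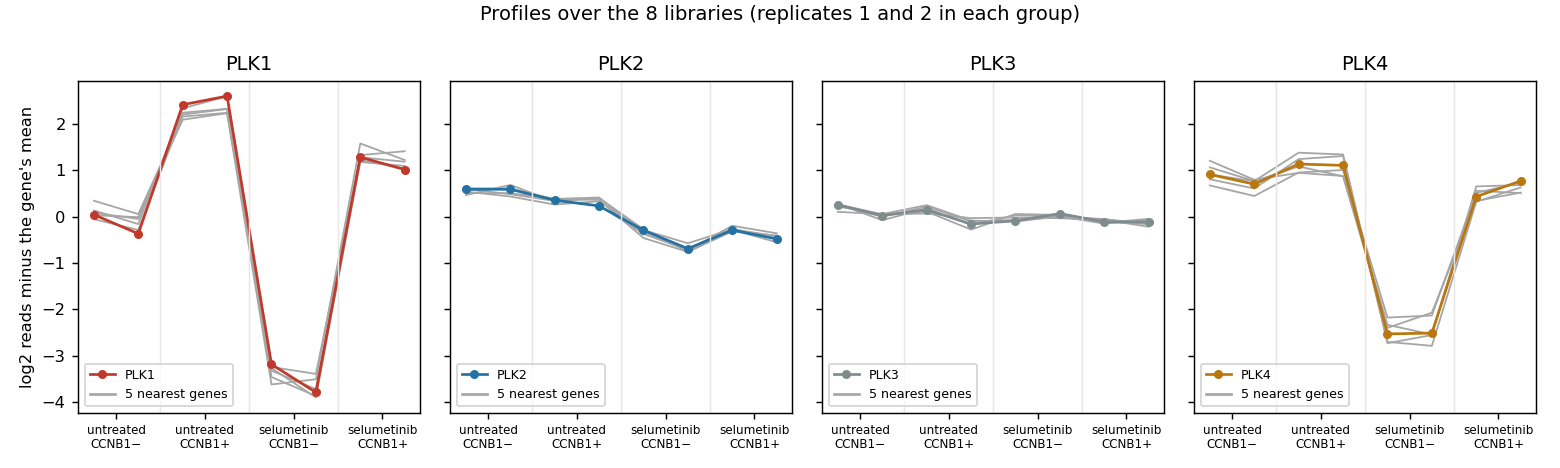
Log2 value minus the gene's mean (vertical axis) over the 8 libraries (horizontal axis) for each member, with its 5 nearest genes in grey. The grey lines follow PLK1 and PLK4 through the drop in treated CCNB1-negative cells, with RMS differences of 0.11 to 0.31 and 0.15 to 0.23.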

How the data were processed

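Poly(A) RNA of 8 HT29 libraries, 2 in each of 4 groups, was analysed. The authors used Trim Galore 0.5.0 for trimming, HISAT2 2.1.0 for mapping to GRCh38, SeqMonk 1.47.0 for gene values scaled to total reads, and DESeq2 for testing. The deposited values are log2 of reads brought to the size of the deepest library, where a gene without reads was given 0.9 reads. Whole reads were recovered within 0.05 of a read for 100% of genes with up to 10000 reads. The annotation release and strand handling are not given in the sources used here.

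All 8 value columns were used. Genes whose mean was 1 RPM or more entered a limma 3.58.1 fit (R 4.3.3) with a trended prior and 1 coefficient per group over all 8 libraries, followed by Benjamini-Hochberg adjustment over 14219 genes. The code of the fit was checked on simulated data with changes in few genes and independent libraries. These data differ in both, so that check does not bear on the p-values here. Replicates differed by more than sampling noise, with a chi-square per gene of 15.6 to 30.2. Reads carry no molecular identifiers, so read counts speak for counting error only.

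The members and gene lists were chosen with earlier results of these data known. By rule, each list names the 2 genes with the largest fall and the 2 with the largest rise among those called in CCNB1-negative cells, and each member its 5 nearest profiles. Identifiers were found in GENCODE 44 for 99.3% of genes, and its merged exons gave the lengths. Promoters are from RefSeq. Alternatives were other scalings, filters, thresholds, a pseudocount, blocks, fewer groups and each library left out. Figures were drawn with matplotlib 3.10.9.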

Additional observations from a re-analysis of the deposited data

Results flagged for a closer look

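The genes below responded to selumetinib to another extent in 1 fraction than in the other, by limma's interaction term, which is the log2 response in CCNB1-positive cells minus that in CCNB1-negative cells. It was 1.96 (SE 0.29, adjusted p = 5.15e-04) for PLK1 and 2.80 (SE 0.23, adjusted p = 4.81e-06) for PLK4. For CDK1, the kinase partner of the sorting marker CCNB1, it was 3.14 (adjusted p = 3.87e-05). For CCNB1 itself it was 2.99 (adjusted p = 1.79e-05), a value that is not independent of the sort on CCNB1 protein. Among the PLK1 partners it was 3.16 for BUB1 (adjusted p = 4.12e-06) and 2.96 for CENPU (adjusted p = 4.57e-06). Among the centriole genes it was 2.25 for CENPJ (adjusted p = 7.13e-05) and 1.46 for SASS6 (adjusted p = 0.00222). These 8 genes fell less in CCNB1-positive cells, or were not called there. For TP53INP1, a p53 target with 2 to 391 reads, it was 2.74 (adjusted p = 0.00248), a larger rise in CCNB1-positive cells. Across all genes 4.99% were called in this direction. CDK1, BUB1, CENPU, CENPJ, SASS6 and TP53INP1 were named for their large changes in the CCNB1-negative response, which the interaction subtracts. Naming genes by a large fall there favours a positive interaction, so their number cannot be read against that share.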

How the results depend on the processing

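The calls of PLK1 in the 2 responses, the 2 fraction differences and the interaction, both responses of PLK2, and the CCNB1-negative response, treated fraction difference and interaction of PLK4 held under every alternative that was run. PLK4 in CCNB1-positive cells missed the threshold of 0.01 (-0.52, adjusted p = 0.0123) and lost its call with nuclear totals without MALAT1 (-0.37), and ranged from -0.69 to -0.35 with 1 library left out. PLK3 turned to 0.027 and 0.039 in the responses with nuclear totals, and to -0.43 (called) in CCNB1-positive cells and -0.19 in the interaction after quantile normalization. With 1 library left out PLK3 ranged from -0.26 to 0.046 in the CCNB1-positive response, from -0.30 to 0.011 between untreated fractions and from -0.11 to 0.20 in the interaction, and PLK2 from -0.090 to 0.30 between treated fractions. The cause was not tested.

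Scaling moved the median of all genes in the responses of CCNB1-negative and CCNB1-positive cells from 0.05 and 0.17 to -0.07 and -0.08 (quantile), 0.23 and 0.31 (nuclear totals) and 0.19 and 0.27 (limma-voom, added after seeing the data). The planned count models were not run, because the deposited unit is log2.

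Whether replicate numbers pair samples is not stated. Differences of replicate 1 minus replicate 2 correlated at 0.35 and 0.43 between the 2 fractions of 1 treatment, and from -0.09 to 0.08 otherwise. Libraries of 1 treatment and number thus shared deviations, which the main fit, without a block, does not take into account. With the replicate block the calls were 500, 3741 and 883 for the untreated fractions, the treated fractions and the interaction, against 408, 3077 and 758, and no call of a member changed. With a replicate block by pair of fractions they were 1923, 6671 and 3850, and PLK2 passed at -0.30 and 0.40. At 0.01 they were 217, 1338 and 426, and the untreated fractions gave 254 after quantile normalization. With 1 library left out they ran from 224 to 455, from 1156 to 4279 and from 489 to 1806, the last without treated CCNB1-negative replicate 1. The untreated fractions gave 263, 229 and 224 without untreated CCNB1-negative replicate 1, its replicate 2 and untreated CCNB1-positive replicate 2, the treated fractions 1156, 1278 and 1621 without treated CCNB1-negative replicate 2 and treated CCNB1-positive replicates 1 and 2, and the interaction 489 and 497 without untreated CCNB1-negative replicate 2 and treated CCNB1-positive replicate 2.

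The change of the PLK1 to PLK4 ratio in CCNB1-negative cells was -0.0025 with 1 read added, and from -0.31 to 0.31 with 1 library left out. That of PLK2 to PLK4 in CCNB1-positive cells ran from -0.42 to 0.10. With the longest transcript, levels were 108 and 45.5 RPKM for PLK1 in untreated and treated CCNB1-positive cells. PLK2 was at 75.0, 60.9, 39.3 and 40.9, and PLK3 at 7.24, 6.55, 7.18 and 6.50. PLK4 was at 13.8, 17.0 and 1.51 in the first 3 groups.

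Among other named genes, differences near 0 changed sign between untreated fractions: SASS6 0.033 (quantile; -0.12 to 0.10 with 1 library left out), BAX -0.048 (quantile), -0.0011 (nuclear totals), -0.0014 (pseudocount), -0.0015 (limma-voom), -0.012 to 0.020 with 1 left out. EGR2 ran from -0.20 to 0.35. CENPJ ran from -0.052 to 0.29 in the CCNB1-positive response, CEP97 from -0.21 to 0.11 and NR4A1 from -0.61 to 0.083 between treated fractions. The interaction of BTG2 was -0.21 (quantile) and -0.23 to 0.43.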

Other observations

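PLK5, the family gene outside the 4, had 0 to 2 reads without the drug, with 0 and 0 in the CCNB1-positive libraries. With selumetinib it had 3 and 3 reads in CCNB1-negative and 2 and 5 in CCNB1-positive libraries, too few for a comparison.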
